A study of Homo sapiens with 6 samples.

Results

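The genes described here write, maintain and remove DNA methylation. They are the DNA methyltransferases DNMT1, DNMT3A and DNMT3B, the maintenance cofactors UHRF1, UHRF2 and HELLS, and the TET dioxygenases TET1, TET2 and TET3. They were chosen by symbol for their known function, with earlier results of these data known. All 9 were found among the 23228 gene names of the deposited table. RNA was sequenced from SaOS-2 cells, a human osteosarcoma line null for RB, that carried a p21 vector under a doxycycline-inducible (Tet) promoter. The 3 p21 OFF libraries came from untreated cells and the 3 p21 ON libraries from cells given 1 μg/ml doxycycline, for 24 h by the sample labels. Both groups carried the vector, and no library of cells given the drug without it was analysed here, so an effect of doxycycline and an effect of p21 cannot be told apart. Whether the cells were a clone and whether replicates were separate cultures is not given in the labels, so p-values measure the spread between these libraries.

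DNA methylation is copied at each S phase. UHRF1 binds hemimethylated CpG sites behind the replication fork and ubiquitylates histone H3, which recruits DNMT1 to methylate the new strand. HELLS is a chromatin remodeller that opens nucleosomal DNA to this machinery, and UHRF2 is a paralog of UHRF1 that does not replace it in maintenance. DNMT3A and DNMT3B set new methylation without a hemimethylated template. The TET enzymes oxidise 5-methylcytosine to 5-hydroxymethylcytosine and further products, which are lost at replication or cut out by the glycosylase TDG.

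The start sites of the members were read from RefSeq (GRCh38.p14), as windows of 250 bases before and 50 bases after each annotated start. All 9 members were matched, with 20 windows in all. Windows were searched on both strands for an E2F site (TTTCCCGC, TTTCGCGC, TTTGCCGC or TTTGGCGC), for a CHR, the element of G2/M promoters (TTTGAA or TTCGAA), and for CCAAT. An E2F string occurred in 4 of the 20 windows, those of DNMT1, UHRF1 (2 windows) and HELLS, and in 3.31% of the 35116 windows of all genes. CHR strings occurred in 2 of the 20 windows (DNMT3A and TET2) and in 16.4% of all windows. CCAAT occurred in 7 of the 20 windows and in 34.6% of all windows, so its share among the members was near the background. The stretches below show the 3 members with an E2F string, ending at the annotated start for HELLS and UHRF1 and crossing it for DNMT1, beside DNMT3B, the member whose transcript fell. Capitals mark E2F strings and CCAAT on either strand.
HELLS, GRCh38.p14 chr10:94545668-94545787, plus strand: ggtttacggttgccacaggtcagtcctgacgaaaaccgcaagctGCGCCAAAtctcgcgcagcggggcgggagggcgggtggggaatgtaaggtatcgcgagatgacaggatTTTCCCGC
UHRF1, GRCh38.p14 chr19:4909381-4909500, plus strand: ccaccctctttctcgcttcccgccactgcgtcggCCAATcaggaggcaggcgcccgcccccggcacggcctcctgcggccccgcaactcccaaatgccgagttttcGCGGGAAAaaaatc
DNMT1, GRCh38.p14 chr19:10194942-10194967, minus strand: ccatcggtttccGCGCGAAAagccgg
DNMT3B, GRCh38.p14 chr20:32779732-32779851, plus strand: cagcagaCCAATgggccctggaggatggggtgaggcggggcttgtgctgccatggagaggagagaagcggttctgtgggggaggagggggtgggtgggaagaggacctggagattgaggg
HELLS held a second E2F string 76 bases before its start, beside the one 8 bases before it, and the string of UHRF1 lay 14 bases before the start shown, with another in a second window 160 bases before its start. The DNMT3B window held a CCAAT 113 bases before the start and no string of the E2F or CHR kind. The windows of UHRF2, TET1 and TET3 also held no E2F or CHR string, and their transcripts did not fall. A match describes these letters and shows no binding.

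The same 3 members are in the G1/S gene lists of the study. HELLS is in the high-stringency list, and DNMT1, UHRF1 and HELLS are in the low-stringency list. The low-stringency G2/M list holds DNMT3B. DNMT3A, UHRF2 and the TET genes are in none of these G1/S and G2/M lists.

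The libraries held 12795490 to 21975045 reads on genes, and the smallest was p21 OFF replicate 1. CDKN1A, the p21 gene, had 1187 to 1355 normalised read counts in the p21 OFF libraries and 40470.4 to 46739 in the p21 ON libraries, so each library matched its label. Normalised read counts are reads on a gene divided by the size factor of the library. Of 10 osteoblast markers, 7 were above a mean of 10, among them RUNX2, SP7, ALPL, COL1A1, IBSP and SPARC, while COL1A2 and SPP1 were at 4.87 or lower in every library and BGLAP was listed at 0 throughout. IBSP was called lower by limma (-0.38, adjusted p = 0.0264) and edgeR (adjusted p = 0.0346) and not by DESeq2 (adjusted p = 0.102). The summed level of the 10 markers was 73276 to 76459 with p21 OFF and 74492 to 77785 with p21 ON. ALPL (35363 to 37346 with p21 OFF) and SPARC (20020 to 20306) were the largest parts of this sum. Of 10 markers of other cell types, 4 passed this mean (EPCAM, KRT8, KRT5 and PECAM1), and their list summed to 499 to 624 with p21 OFF and 504 to 518 with p21 ON. RB1 had 497 to 697 normalised read counts, which count RNA and do not show whether a protein is made. MKI67, the proliferation antigen, fell from 8563 ± 1570 to 4558 ± 390 normalised read counts (SD, n = 3 each).

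Genes were tested with limma on log2(normalised read count + 1), a scale that understates changes of weakly expressed genes. Only the 13255 genes whose mean reached 10 were tested. Those with a Benjamini-Hochberg adjusted p below 0.05 were called higher or lower. All 9 members passed this filter. DNMT3A, UHRF1 and UHRF2 were called higher in p21 ON cells, DNMT3B was called lower, and the other 5 members were not called. Among all tested genes 10.5% were called higher, 12.7% lower and 23.2% in either direction. The median log2 difference of the members was 0.22, and 0.12 without p21 OFF replicate 1, beside 0.01 over all genes tested. All p21 ON values exceeded all p21 OFF values for 5 members (19.1% of all tested genes) and were below them for 1 (21.3%). In bulk RNA, fewer cells that express a gene and less RNA per cell cannot be told apart.

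**Figure D1:**
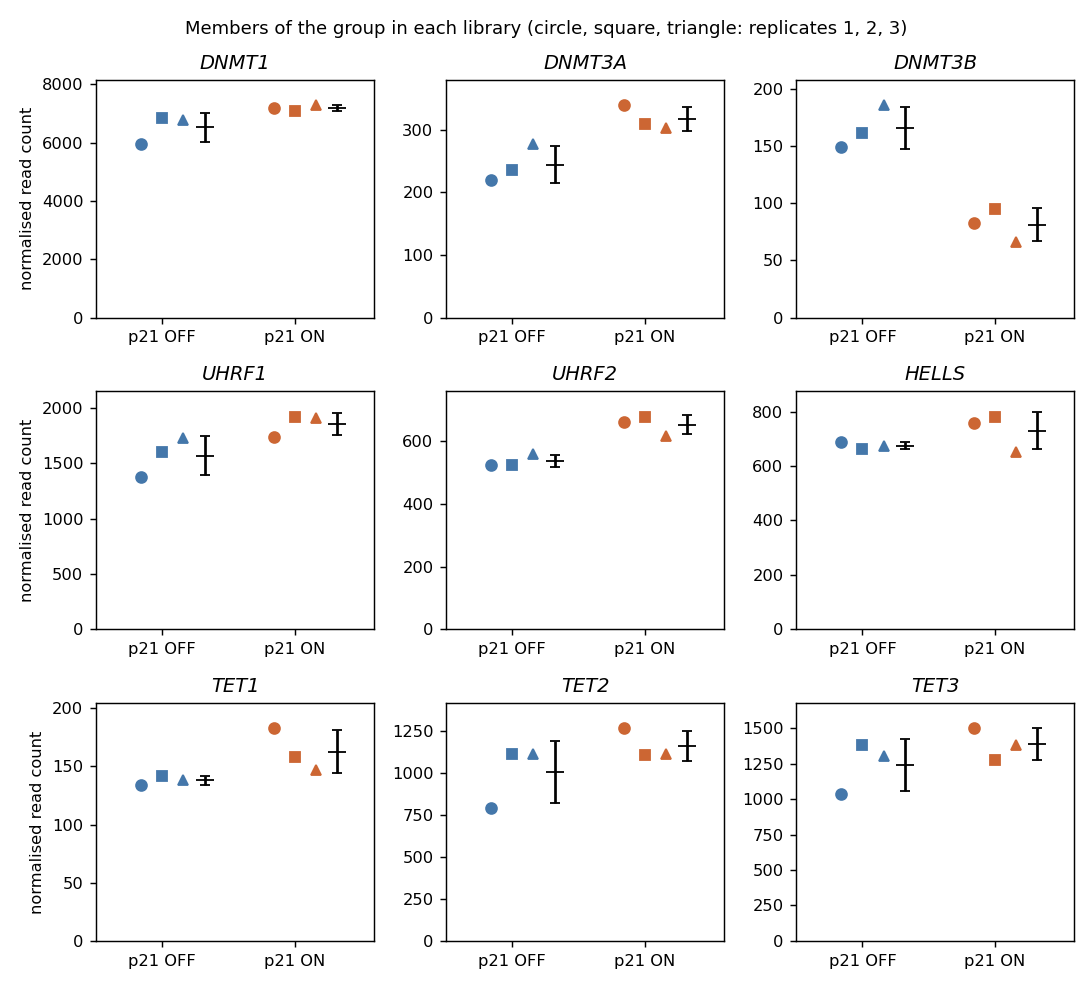
Normalised read counts of the 9 members in the 3 p21 OFF (blue) and 3 p21 ON (orange) libraries, with the mean and SD of each group in black and every axis starting at 0. DNMT3B is the member whose p21 ON libraries lie below all p21 OFF libraries, at 66.5 to 95.0 against 149 to 186.

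DNMT3B, a de novo methyltransferase, is a plus-strand gene of chromosome 20 (GRCh37, 31350191 to 31397165). With p21 OFF it had 149, 162 and 186 normalised read counts, and with p21 ON 82.7, 95.0 and 66.5. The highest p21 ON library was well under the lowest p21 OFF library. The mean fell from 166 ± 18.3 to 81.4 ± 14.3 (SD, n = 3 each), a log2 difference of -1.02 with a 95% interval from -1.32 to -0.73 and a fold of 0.49 (adjusted p = 4.48e-05 from limma). The call held under all 14 alternative settings, with log2 differences from -1.14 to -0.89. Within the low-stringency G2/M list, 310 of 403 tested genes had a higher log2 difference than DNMT3B and 92 a lower, around a list median of -0.30.

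DNMT3A, the second de novo enzyme, is a minus-strand gene of chromosome 2 (25450724 to 25565459). Its p21 OFF libraries held 219.8, 236 and 276 normalised read counts and its p21 ON libraries 339, 309 and 302. All p21 ON libraries were above all p21 OFF libraries, against the direction of DNMT3B. DNMT3A rose from 244 ± 29.2 to 317 ± 19.4 (SD, n = 3 each), a log2 difference of 0.38 with a 95% interval from 0.17 to 0.59 (adjusted p = 0.0107 from limma). Without p21 ON replicate 1 the log2 difference was 0.33 and the call was lost (adjusted p = 0.0703 from limma).

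The balance of the de novo enzymes was compared within each library, where library scaling cancels. With p21 OFF the log2 ratio of DNMT3A to DNMT3B was 0.55, 0.54 and 0.57, and with p21 ON it was 2.02, 1.69 and 2.17. The p21 OFF values were close together and all p21 ON values were above them. The ratio shifted by 1.40 (standard error 0.14), or 2.65-fold (two-sided exact permutation, p = 0.1, the lowest possible with 3 libraries against 3, and 0.233 after Benjamini-Hochberg adjustment over 7 pairs of members). Counted per kb of canonical transcript, DNMT3B made up 59.6% ± 0.257 of the DNMT3A and DNMT3B sum with p21 OFF and 35.7% ± 3.94 with p21 ON (SD, n = 3 each).

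DNMT1, the maintenance methyltransferase, is a minus-strand gene of chromosome 19 (10244018 to 10341962), where some of its annotated exons overlap those of S1PR2 on the same strand. It had 5963, 6863 and 6779.5 normalised read counts with p21 OFF and 7197, 7090.2 and 7286 with p21 ON. Every p21 ON library was above every p21 OFF library, and p21 OFF replicate 1 was the lowest. The log2 difference was 0.14 with a 95% interval from 0.01 to 0.27 and was not called (adjusted p = 0.112 from limma). It was 0.08 once p21 OFF replicate 1 was left out, and under scaling by library size alone it was 0.18 and called (adjusted p = 0.0328 from limma). Among the 520 tested genes of the low-stringency G1/S list, whose median was 0.01, 379 had a lower log2 difference than DNMT1 and 140 a higher. Against DNMT3B, DNMT1 had a log2 ratio that differed by 1.17 (standard error 0.17, exact two-sided permutation test, p = 0.1, adjusted p = 0.233), and against DNMT3A by -0.24 (standard error 0.09, the same p-values), both without overlap of the groups.

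UHRF1, the reader of hemimethylated CpG sites, is a plus-strand gene of chromosome 19 (4903092 to 4962165), with 1379, 1596 and 1725 normalised read counts with p21 OFF and 1737, 1918 and 1908 with p21 ON. The groups did not overlap, although the highest p21 OFF library was just under the lowest p21 ON library. UHRF1 rose from 1567 ± 175 to 1854 ± 102 (SD, n = 3 each), a log2 difference of 0.25 with a 95% interval from 0.09 to 0.41 (adjusted p = 0.0262 from limma). Leaving out p21 OFF replicate 1 (0.16) or either of p21 ON replicates 2 (0.22) and 3 (0.23) lost this call, with adjusted p-values of 0.0538, 0.0947 and 0.113 from limma. In the low-stringency G1/S list, 431 of 520 tested genes had a lower log2 difference and 88 a higher.

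UHRF2 is a plus-strand gene of chromosome 9 (6413151 to 6507054). Its normalised read counts were 526, 526 and 559.5 with p21 OFF and 664, 679 and 619 with p21 ON. The groups did not overlap. It rose from 537 ± 19.4 to 654 ± 31.2 (SD, n = 3 each), a log2 difference of 0.28 with a 95% interval from 0.13 to 0.44 (adjusted p = 0.0102 from limma), and the call was lost without p21 ON replicate 1 (0.27, adjusted p = 0.0549 from limma). The log2 ratio of UHRF1 to UHRF2 was 1.54 ± 0.13 with p21 OFF and 1.50 ± 0.12 with p21 ON (SD, n = 3 each). This difference of -0.03 (standard error 0.10) was within the spread of the libraries (exact two-sided permutation test, p = 0.8, adjusted p = 0.933).

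HELLS is a plus-strand gene of chromosome 10 (96305086 to 96373662) whose annotated exons overlap an unnamed gene of the same strand. It had 689, 662 and 674 normalised read counts with p21 OFF and 757, 781 and 653 with p21 ON. The lowest library of all was p21 ON replicate 3, so the groups overlapped. The log2 difference was 0.11 with a 95% interval from -0.05 to 0.27 (adjusted p = 0.322 from limma), and it was not called under any of the 14 alternatives. In the high-stringency G1/S list, 28 of 54 tested genes had a lower log2 difference than HELLS and 25 a higher, around a median of 0.10.

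**Figure D2:**
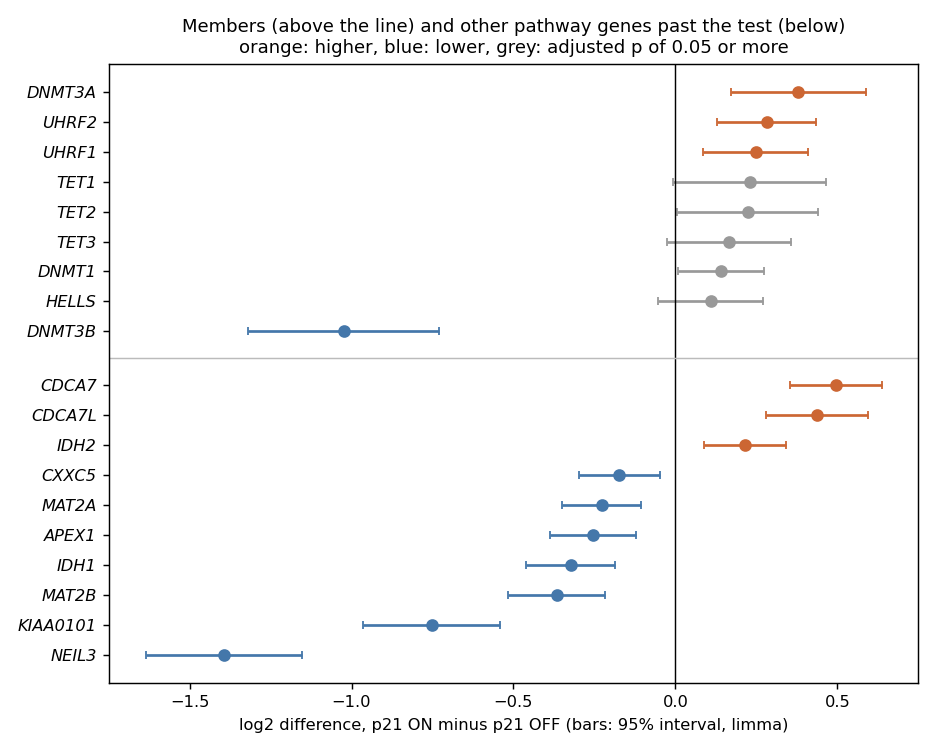
Log2 differences, p21 ON minus p21 OFF, with 95% intervals from limma for the 9 members (above the line) and for the 10 other pathway genes that passed the test (below). DNMT3B at -1.02 stands apart from the 8 other members, which lie between 0.11 and 0.38.

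The TET genes had higher means with p21 ON, and none was called by limma, edgeR or DESeq2 with all 6 libraries. TET1, on chromosome 10 from 70320094 to 70454244, had 134, 142 and 138 normalised read counts with p21 OFF and 183, 158 and 147 with p21 ON. Its groups did not overlap, and the p21 ON libraries were spread more widely. The log2 difference was 0.23 with a 95% interval from -0.01 to 0.47 (adjusted p = 0.150 from limma).

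TET2, on chromosome 4 from 106067032 to 106200973, had 794, 1112 and 1112 normalised read counts with p21 OFF and 1267, 1106 and 1114 with p21 ON. The p21 OFF replicate 1 library was low and p21 ON replicate 1 high, while the other 4 libraries lay together. Its log2 difference was 0.22 with a 95% interval from 0.01 to 0.44 (unadjusted p = 0.0445, adjusted p = 0.125 from limma). Leaving out p21 OFF replicate 1 gave 0.06, and leaving out p21 OFF replicate 3 gave 0.30, which was called (adjusted p = 0.0351 from limma).

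TET3, on chromosome 2 from 74212037 to 74335303 and with exons that overlap an unnamed gene of the same strand, had 1034, 1383 and 1307 normalised read counts with p21 OFF and 1498, 1272 and 1385 with p21 ON. The groups overlapped, and p21 OFF replicate 1 was again the lowest. Its log2 difference was 0.17 with a 95% interval from -0.03 to 0.36 (adjusted p = 0.199 from limma), and 0.04 without p21 OFF replicate 1. The log2 ratios between TET genes moved by 0.01 (TET1 to TET2, standard error 0.15), 0.06 (TET1 to TET3, standard error 0.13) and 0.06 (TET2 to TET3, standard error 0.05), with overlapping groups in each pair (exact two-sided permutation tests, p = 1.0, 0.8 and 0.4).

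The p21 OFF replicate 1 library was the lowest p21 OFF library for 7 of the 9 members, all but UHRF2 and HELLS. It was the lowest for 38.8% of all tested genes with a transcript length, and for 75.5% of the 763 tested genes with a canonical transcript of at least 9 kb. DNMT3A and the TET genes have canonical transcripts of 9.42 to 12.1 kb. The median log2 difference of the genes of at least 9 kb was 0.18, and 0.10 without that library. The part of transcript length and of this library in the members' differences was not tested. DNMT3A without it stood at 0.31 and was called (adjusted p = 0.0196 from limma).

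**Figure D3:**
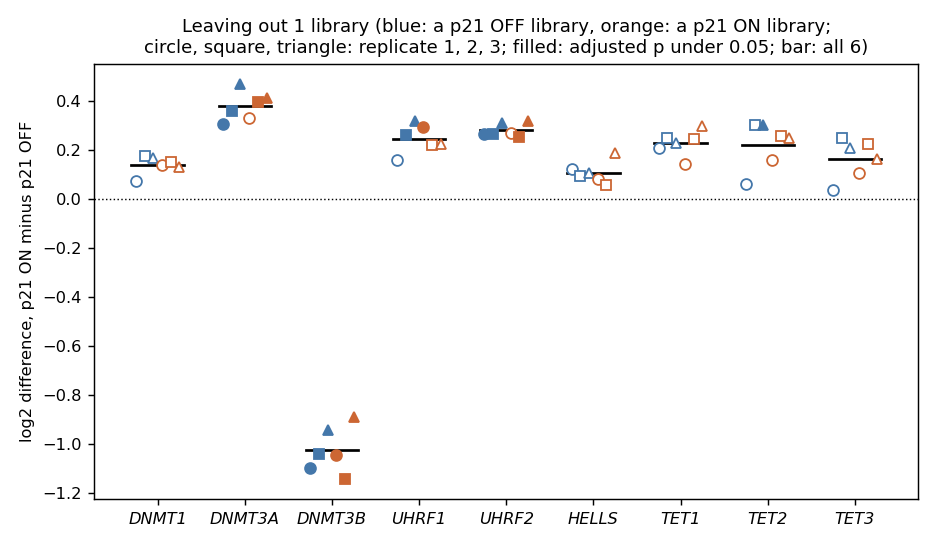
Log2 difference of each member with 1 library left out (points, filled where called) and with all 6 libraries (bars). DNMT3B stays between -1.14 and -0.89 and is called each time, while TET2 and TET3 drop to 0.06 and 0.04 without p21 OFF replicate 1.

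Levels between genes were compared per kb of canonical transcript. DNMT1 was the most abundant member, with 1239 ± 94.3 normalised read counts per kb in p21 OFF cells (SD, n = 3). UHRF1 followed at 402 ± 44.9, HELLS at 216 ± 4.46 and UHRF2 at 150.2 ± 5.42. TET2 at 104.9 ± 19.2 and TET3 at 102.9 ± 15.2 overlapped in their libraries. DNMT3B at 38.2 ± 4.23, DNMT3A at 25.9 ± 3.10 and TET1 at 14.4 ± 0.405 were the lowest, and apart from TET2 and TET3 no neighbours in this order overlapped. In p21 ON cells the order of the first 6 was the same, with TET2 and TET3 overlapping, and the last 3 were DNMT3A at 33.6 ± 2.06, DNMT3B at 18.8 ± 3.30 and TET1 at 16.9 ± 1.89, where DNMT3B and TET1 overlapped. DNMT3A and DNMT3B had thus changed places.

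**Figure D4:**
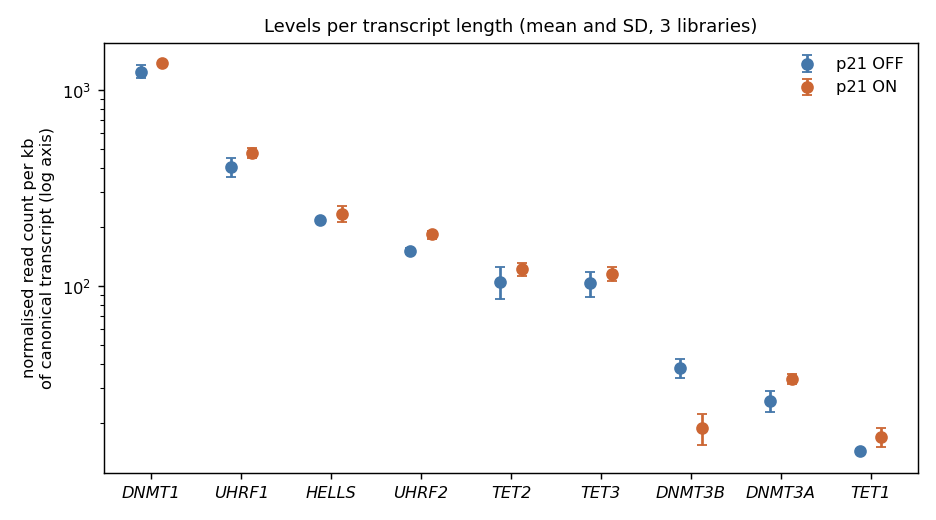
Mean and SD of normalised read counts per kb of canonical transcript on a log axis, in order of the p21 OFF level. DNMT1 is highest at 1239 and 1364, and DNMT3B is the member whose p21 ON point (18.8) lies below its p21 OFF point (38.2).

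**Figure D5:**
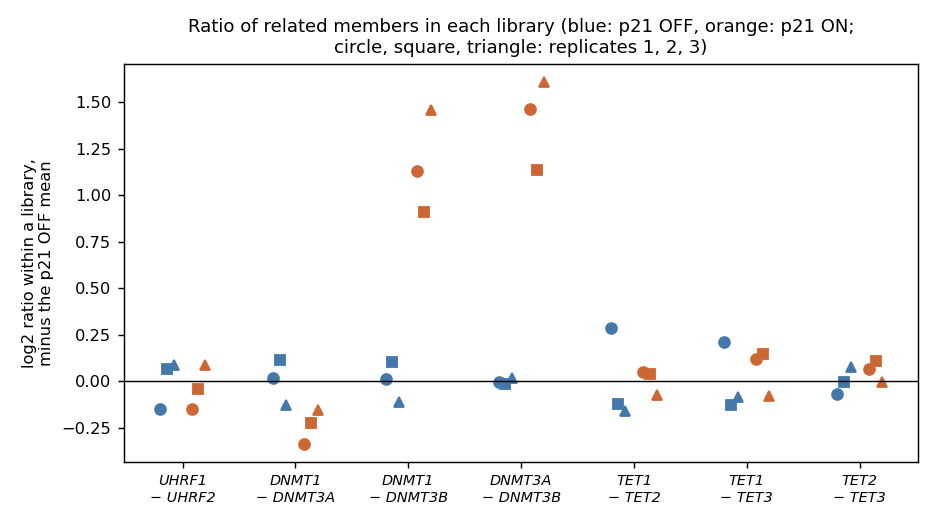
Log2 ratio of 2 related members in each library, after the p21 OFF mean of the pair is taken off. The p21 ON libraries lie above all p21 OFF libraries for DNMT1 to DNMT3B and DNMT3A to DNMT3B, with mean shifts of 1.17 and 1.40, below them for DNMT1 to DNMT3A (-0.24), and overlap for UHRF1 to UHRF2 and the TET pairs.

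Among 13 partners and recruiters of the methyltransferases, 12 were tested. Of these, 2 were called higher and 1 lower, beside 10.5% and 12.7% of all tested genes. DNMT3L was at 1.56 or lower in every library. CDCA7, the zinc finger protein that carries HELLS to chromatin, had 651 to 668 normalised read counts with p21 OFF and 908 to 979.6 with p21 ON. It rose by 0.50 on the log2 scale (95% interval from 0.35 to 0.64, adjusted p = 4.15e-05 from limma). Its paralog CDCA7L rose by 0.44 (adjusted p = 0.000481 from limma), and its exons overlap those of DNAH11 on the opposite strand. The call lower was KIAA0101, now named PCLAF, the PCNA-associated protein that UHRF1 ubiquitylates during maintenance. With p21 OFF it had 303 to 383 normalised read counts and with p21 ON 191 to 214, a log2 difference of -0.75 (95% interval from -0.96 to -0.54, adjusted p = 3.47e-05 from limma). CDCA7, CDCA7L and KIAA0101 are all in the low-stringency G1/S list of the study, and each call held under the 14 alternatives.

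The other named partners were not called. USP7, which deubiquitylates UHRF1 and DNMT1, had a log2 difference of -0.13 (adjusted p = 0.122 from limma) and LIG1, the replicative ligase that UHRF1 binds, one of -0.13 (adjusted p = 0.169). PCNA, the clamp that holds DNMT1 at the fork, stood at 0.15 (adjusted p = 0.145), and QSER1, a protein reported to shield CpG-rich regions from the de novo enzymes, at 0.15 (adjusted p = 0.151). PCNA and QSER1 are in the low-stringency G1/S list too. LIG1 (-0.18) and PCNA (0.22) were called without p21 OFF replicate 1.

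None of 10 genes of the methyl-CpG reader families, such as the MBD genes and ZBTB33, was called by limma, edgeR or DESeq2. Among all tested genes limma called 23.2% in either direction, and from 10 genes no result about these families is drawn. The share of all tested genes at an unadjusted p under 0.05 is not given here. Being in such a family does not show that a protein binds methylated CpG. At an unadjusted p under 0.05, 1 was higher (MBD5, 0.25, adjusted p = 0.0653 from limma). MBD4, a reader with a thymine glycosylase domain, had a log2 difference of -0.15 (adjusted p = 0.155). In the list of demethylation and base excision repair, 16 genes were tested. Of these, 3 were called lower and none higher, beside 12.7% and 10.5% of all tested genes. GADD45A (0.16) was the 1 gene higher at an unadjusted p under 0.05 from limma, and none was called higher by edgeR or DESeq2. NEIL3, a glycosylase of oxidised bases held by the low-stringency G2/M list, had 248 to 296 normalised read counts with p21 OFF and 91.2 to 112 with p21 ON. It fell by 1.39 on the log2 scale (95% interval from -1.63 to -1.15, adjusted p = 4.73e-08 from limma).

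APEX1, the abasic site endonuclease, fell by 0.25 (adjusted p = 0.00754 from limma), and was not called without p21 ON replicate 1 (adjusted p = 0.0601). CXXC5, a CXXC protein linked to TET2 control, had a log2 difference of -0.17 (adjusted p = 0.0454 from limma) that was called in 3 of 14 alternatives. Both overlap exons on the opposite strand, those of PIP4P1 and CXXC5-AS1. TDG, which removes the oxidised products of the TET enzymes, had a log2 difference of -0.15 (adjusted p = 0.23), and OGT, the glycosyltransferase that binds TET proteins, one of 0.07 (adjusted p = 0.452).

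Cofactor enzymes, those of S-adenosylmethionine and 2-oxoglutarate metabolism, were listed as 14 genes, of which 12 were tested. Of these, 1 was called higher and 3 lower, beside 10.5% and 12.7% of all tested genes. MAT2A, which makes S-adenosylmethionine, the methyl donor of the methyltransferases, fell from 2513 ± 57.6 to 2146 ± 53.9 normalised read counts (SD, n = 3 each), a log2 difference of -0.23 (adjusted p = 0.00914 from limma). Its regulatory subunit MAT2B fell by 0.37 (adjusted p = 0.0014 from limma). The low-stringency G2/M list also holds MAT2A. IDH1, the cytosolic isocitrate dehydrogenase, is among the listed enzymes that make 2-oxoglutarate, which TET enzymes use. It fell by 0.32 (adjusted p = 0.00199 from limma), while its mitochondrial counterpart IDH2 rose by 0.22 (adjusted p = 0.0158). The IDH2 call was lost on leaving out p21 OFF replicate 2 or either of p21 ON replicates 1 and 3 (highest adjusted p = 0.0755), and those of MAT2A, MAT2B and IDH1 held in all 14 alternatives. AHCY, which clears S-adenosylhomocysteine, had a log2 difference of 0.02 (adjusted p = 0.828 from limma). Exons of MAT2A and IDH1 overlap those of GGCX and IDH1-AS1 on the opposite strand.

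As a set of genes outside the machinery, 20 germline and cancer-testis genes whose promoters are methylated in most somatic tissues were examined. In these cells 10 of them passed the filter on low values, and none was called by limma, edgeR or DESeq2. Limma called 23.2% of all tested genes in either direction, so this count of 10 genes is not read as a result about them. At an unadjusted p under 0.05, 1 was lower (MAGEC2, -0.18, adjusted p = 0.0526 from limma) and none was higher. The 10 log2 differences ranged from -0.18 to 0.19. The p21 OFF means of these tested genes ran from 10.8 (MAEL) to 1569 (MAGEA3) normalised read counts. Genes below the filter were not tested and promoter methylation was not measured, so the values do not show whether silent promoters stayed silent. MAGEA3 and MAGEA6 are near-identical copies, and their split of reads is uncertain.

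For the called members with the largest changes, DNMT3B and DNMT3A, the most similar genes were found by the root mean square difference of log2 values over the 6 libraries, after each gene's mean was taken off, among the 10442 genes whose mean reached 100. Nearest to DNMT3B were CEP128 (0.11), DIAPH3 (0.12) and FANCM (0.12). DIAPH3, a formin, had 1083, 1239 and 1214 normalised read counts with p21 OFF and 601, 659 and 571 with p21 ON. Nearest to DNMT3A were JAM2 (0.04), NKD1 (0.04) and CYP2U1 (0.05). JAM2, a junctional adhesion molecule, had 188 to 222 normalised read counts with p21 OFF and 248 to 296 with p21 ON. These genes were selected for their likeness, so their differences are given without a test.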

How the data were processed

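Poly(A) RNA of 6 libraries was analysed. According to the methods and the submitters' processing notes, the authors made stranded mRNA libraries, mapped single-end reads to hg19 with STAR, counted reads on genes with HTSeq and divided them by DESeq2 size factors. The deposited table holds these normalised counts, a signal of 0 or above per gene and library. Tool versions, and whether the counting used strand, are not given in the sources used here. Dividing each library by the worth of 1 read gave whole reads for 100% of its values (tolerance 0.02 reads). The table holds normalised values, so limma 3.58.1 (R 4.3.3) with a trend was used on log2(normalised count + 1), without covariates, for genes with a mean of at least 10 normalised counts. On simulated counts limma called 99% of 200 genes changed by 1 on the log2 scale and 11 unchanged genes among 13250 tested. The simulated counts had the same dispersion for every gene and no library that was low for long transcripts. These results therefore do not carry over to smaller changes or to the spread of the real libraries.

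The members and all gene lists were chosen with earlier results of these data known. Named were all members, the up to 3 called genes with the lowest adjusted p-values per direction in each list, 11 fixed pathway genes, CDKN1A, RB1 and MKI67, and the 3 genes nearest to each of the 2 called members with the largest changes. MBD5, GADD45A, MAGEC2, NSD1 and LIG3 were named after their values were seen. DNMT3L, ZBTB33, MAEL, MAGEA3 and MAGEA6 were also named outside this rule. Alternatives were edgeR 4.0.16 with TMM and DESeq2 1.42.0 on the recovered reads, library size alone, pseudocounts 0.1 and 10, no filter, an adjusted p-value under 0.01, a replicate block and each library left out. GENCODE 44 annotation on GRCh37 coordinates gave positions and transcript lengths. Lists of the study were matched by symbol only. Some listed genes are not reported here.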

Additional observations from a re-analysis of the deposited data

How the results depend on the processing

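With 3 libraries a group and 12795490 to 21975045 reads, weakly expressed members such as TET1 and DNMT3B carry the widest intervals, and an exact test of a single value cannot go below p = 0.1. The call of DNMT3B held in all 14 alternatives, those of DNMT3A and UHRF2 in 12 and that of UHRF1 in 10, and no member changed sign in any of them. Why calls moved was not tested, other than where the stricter threshold by itself removed them. The share of all tested genes called under each alternative is not given here. Counts of calls under the alternatives therefore cannot be set against it.

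An adjusted p-value under 0.01 removed the calls of DNMT3A (0.38), UHRF1 (0.25) and UHRF2 (0.28), leaving 0 members higher, and left 0 genes higher among the enzymes of S-adenosylmethionine and 2-oxoglutarate metabolism. Scaling by library size alone added DNMT1 (0.18). It also added 1 gene of the methyl-CpG reader families called higher and 1 gene called higher in demethylation and base excision repair. The replicate block also called 1 gene of the reader families higher. Under both it was MBD5, as without p21 OFF replicate 3, and the added repair gene was GADD45A, as without p21 OFF replicate 1, where LIG3 was also called lower and CXXC5 was not called.

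Leaving out 1 library at a time gave log2 differences from 0.08 to 0.18 for DNMT1, 0.31 to 0.47 for DNMT3A, -1.14 to -0.89 for DNMT3B, 0.16 to 0.32 for UHRF1, 0.25 to 0.32 for UHRF2, 0.06 to 0.19 for HELLS, 0.14 to 0.30 for TET1, 0.061 to 0.30 for TET2 and 0.04 to 0.25 for TET3. The number of members called higher ranged from 1 (without p21 ON replicate 1) to 4 (without p21 OFF replicate 3, with TET2), and 1 was called lower each time. The partners called higher ranged from 2 to 4 and those called lower from 1 to 2. Without p21 OFF replicate 3 they included QSER1 and NSD1, and without p21 OFF replicate 1 PCNA was called higher and LIG1 lower. Genes of the reader families called higher ranged from 0 to 1. Repair genes called higher ranged from 0 to 1 and lower from 1 to 3. Cofactor enzymes called higher ranged from 0 to 1, with 3 lower each time. No germline gene was called in these fits.

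The deviations of same-numbered libraries from their group means correlated at -0.06, -0.02 and -0.05 across genes. No shared effect of the replicate number was seen, but these values cannot show whether libraries were prepared in pairs. With the number as a block, limma gave DNMT3B -1.02 and the same calls for the 9 members. Per kb of the union of all annotated exons in place of the canonical transcript, DNMT1 had 425 and 468 normalised read counts with p21 OFF and ON, and HELLS (47.4 and 51.3) fell below UHRF2 (54.2 and 65.9), TET2 (61.1 and 70.5) and TET3 (95.9 and 107). DNMT3B (24.1 and 11.8) fell below TET1 (14.4 and 16.9) with p21 ON, so the order of levels depends on the length used for these genes.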
